A study of Homo sapiens with 18 samples.

Results

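The tubulin genes and the genes of microtubule-associated proteins (MAPs) were examined in 6 ovarian cancer cell lines. The group was defined by name as MAP1A, MAP2, MAP4, MAPT, STMN1, TUBB3, TUBB2A, TUBB2B, TUBB6 and TUBA1A. Of these 10 genes, 8 were analysed among the 12853 genes measured, while TUBB3 and MAPT were not analysed here. MAP1A was chosen because its expression was lower in all 3 resistant lines than in their sensitive counterparts, so its values are given as a description without a test. The other 7 genes were chosen for the family they belong to.

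Microtubules are hollow polymers of alpha-tubulin and beta-tubulin, which pair to form the building block that is added to and lost from the polymer ends. Humans carry several genes for each tubulin, and their products, called isotypes, differ mainly at the carboxy-terminal tail. MAPs bind along the polymer and stabilise it, whereas stathmin, the product of STMN1, binds free tubulin and favours disassembly. Microtubules form the mitotic spindle, and beta-tubulin is the target of the taxanes, drugs that are given together with platinum in ovarian cancer.

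The series holds RNA-seq data for 3 pairs of lines, each a platinum-sensitive line and its resistant counterpart, with 3 libraries per line and 18 in all. A2780, which the labels call endometrial/ovarian cancer cells, was paired with CP70, a derivative selected for resistance in culture. PEA1 and PEA2 came from 1 patient with high-grade serous ovarian cancer (HGSOC), before platinum treatment and after resistant relapse, and PEO1 and PEO4 came from another, both after platinum chemotherapy but on either side of the onset of clinical resistance. Each line stands for a single origin, so that a difference within a pair is a difference between 2 lines and cannot be told apart from other changes that arose between them. All lines were grown in the same RPMI-1640 medium with glutamine and fetal bovine serum, and the labels of these libraries name no drug treatment. RNA was depleted of ribosomal RNA, and expression was deposited as log2 CPM, read counts scaled to a common library size on a log2 scale, so that a difference of 1 on this scale is a doubling.

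Between 1344098 and 7067336 reads per library fell on the listed genes, and 3 reads corresponded to between 0.452 and 2.18 CPM. The labelled tissue was checked against epithelial markers. In A2780 their summed level was 2.24 to 3.13 CPM and 8 of 9 markers held at most 3 reads in every library, whereas the sum was 7498 to 8508 CPM in PEO1. PTPRC was the only 1 of 5 listed blood cell markers that was measured. It was at 20.2 to 25.1 CPM in PEA2 and at no more than 0.526 CPM in each library of the other lines. The counts of replicate libraries varied beyond Poisson sampling, with chi-square values of 1.75 to 13.8 per degree of freedom. Nothing in the labels says that they came from separate cultures, and p-values then measure only the spread between these libraries.

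The tested genes moved in different directions in the 3 pairs. In CP70, all 7 rose relative to A2780 at a false discovery rate (FDR) below 0.05, against 22.2% of all genes that rose and 17.7% that fell. In PEA2, 3 of the 7 fell relative to PEA1 (MAP2, TUBB6 and TUBA1A) and 4 did not pass the test, against 32.5% of all genes that rose and 29.4% that fell. In PEO4, all 7 fell relative to PEO1, against 19.6% of all genes that rose and 21.9% that fell. FDRs are from limma with Benjamini-Hochberg adjustment over all 12853 genes. Without PEO4 replicate 3, 4 of the 7 genes were called in the PEO pair. The median log2 fold change (log2FC, resistant minus sensitive) of the 7 genes was 0.86 for CP70, -0.08 for PEA2 and -0.94 for PEO4, beside -0.02, 0.01 and -0.02 for all genes. Under the threshold of the study, which also asks for a log2FC beyond 2 in either direction, MAP2 was called in every pair and no other tested gene in any. This threshold was passed by 9.06% of all genes for CP70 against A2780, by 14.1% for PEA2 against PEA1 and by 6.22% for PEO4 against PEO1.

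**Figure D1:**
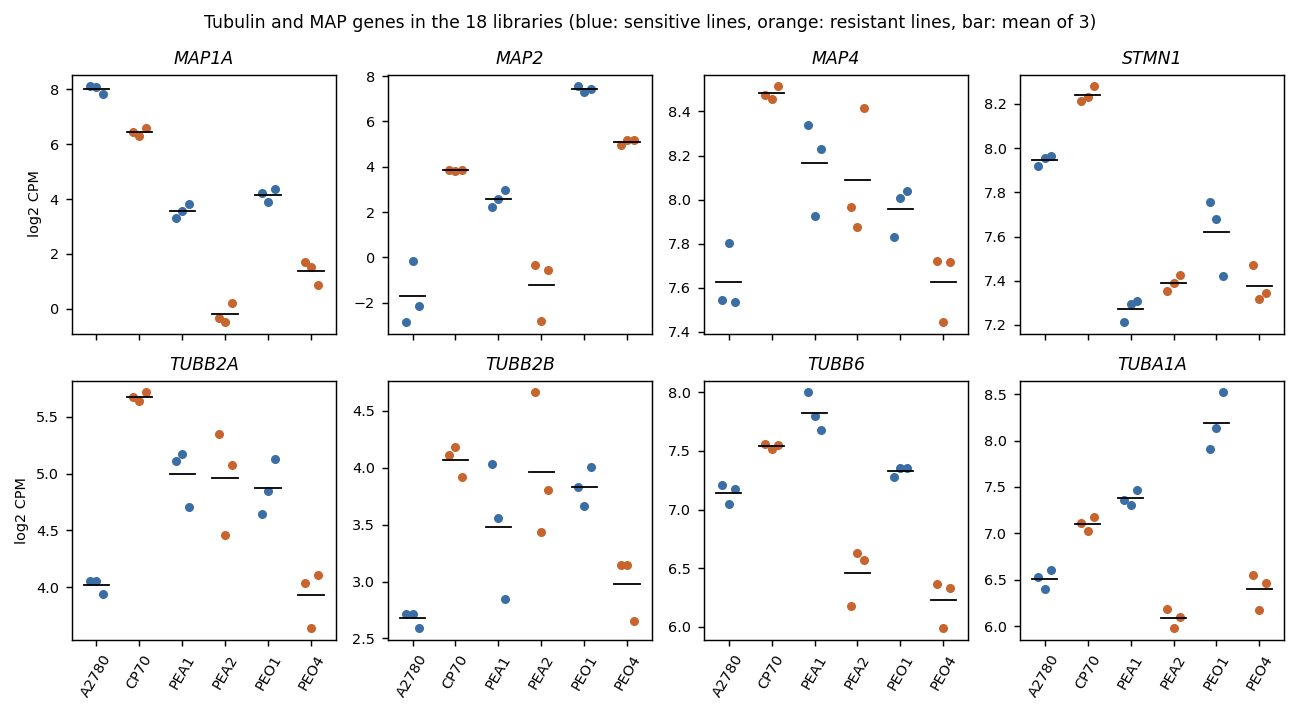
Each panel plots log2 CPM (vertical axis, with its own range) for 1 gene in the 6 cell lines (horizontal axis), with a point for each of the 3 libraries and a bar for their mean. MAP1A lies lower in the orange resistant line of every pair, MAP2 lies higher in CP70 than in A2780 but lower in PEA2 and PEO4 than in PEA1 and PEO1, and the 4 tubulin genes lie lower in PEO4 than in PEO1.

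MAP1A (ENSG00000166963, chr15:43803156-43823818 of GRCh37, plus strand) encodes a large protein that binds and stabilises microtubules, chiefly in neurons. Its log2 CPM in the 3 libraries of A2780 was 8.11, 8.08 and 7.83, and in those of CP70 6.44, 6.30 and 6.60. In PEA1 it was 3.29, 3.56 and 3.82, and in PEA2 -0.32, -0.47 and 0.19. In PEO1 it was 4.23, 3.89 and 4.35, and in PEO4 1.72, 1.5 and 0.87. The libraries of the sensitive and the resistant line did not overlap in any pair, which follows from how the gene was chosen. The log2FC was -1.56 for CP70 and -2.80 for PEO4, each with a standard error (SE) of 0.25. The paper lists MAP1A as downregulated in all 3 resistant lines at a log2FC beyond 2. The value for CP70 here does not reach that size. The PEA2 libraries held 1 or 2 reads of MAP1A against 13 to 24 in PEA1, and the level in PEA2 was at least 9.03-fold lower when set against 3 reads in each library.

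The level of MAP1A also differed between origins. In order, the lines were A2780, CP70, PEO1, PEA1, PEO4 and PEA2, and the libraries of no neighbours in this order overlapped. CP70, the resistant line of its pair, had a mean log2 CPM of 6.44 ± 0.15 (SD, n = 3), above the 4.16 ± 0.24 of PEO1 and the 3.56 ± 0.26 of PEA1, both sensitive. In bulk RNA, fewer cells that express a gene and less RNA of it per cell cannot be told apart.

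MAP2 (ENSG00000078018, chr2:210288771-210598871, plus strand) encodes a MAP best known from the dendrites of neurons, and it had the widest range of the tested genes. Its log2 CPM was 7.55, 7.31 and 7.45 in PEO1 and 4.97, 5.16 and 5.17 in PEO4. It was 3.86, 3.82 and 3.84 in CP70, whereas A2780 held 0, 3 and 0 reads. PEA1 held 6, 8 and 13 reads and PEA2 1, 0 and 1. No pair had overlapping libraries. MAP2 was at least 14.4-fold higher in CP70 than in A2780 (FDR = 1.08e-07, limma) and at least 4.57-fold lower in PEA2 than in PEA1 (FDR = 8.66e-06, limma), each against 3 reads in each library. In PEO4 it fell with a log2FC of -2.34 (SE 0.57, FDR = 0.00249, limma), while remaining the second highest of the 6 lines. This SE draws on the spread in all 6 lines. The SD of MAP2 was 0.12 in PEO1 and 0.11 in PEO4, but 1.40 in A2780 and 1.37 in PEA2.

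Neuronal markers moved with MAP2 in the A2780 pair. Of the 12 listed, 4 were measured, and 3 of these (NEFH and INA, neurofilament subunits, and ENO2, an enolase of neurons) rose in CP70. Their summed level was 85.1 to 97.9 CPM in A2780 and 1043 to 1080 in CP70. It was 84.6 to 103 CPM in PEA1, 75.2 to 88.7 in PEA2, 29.5 to 31.1 in PEO1 and 11.8 to 15.2 in PEO4. PEO1, with the highest MAP2 level, had a lower sum of neuronal markers than A2780, in which MAP2 was near 0. NEFH alone held 83.1 to 95.2 CPM in A2780 and at most 0.358 in PEO1. ENO2 and NCAM1 went the other way, at 22.8 to 24.8 and 4.57 to 6.80 CPM in PEO1. ENO2 was at 0.56 to 0.894 CPM in A2780, and INA was at no more than 1.79 CPM in either line. NCAM1 held no read in A2780 or CP70, and the part of these markers in the MAP2 result was not tested.

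MAP4 (ENSG00000047849, chr3:47892180-48130762, minus strand) encodes the main MAP of non-neuronal cells, and its level varied far less. The mean log2 CPM lay between 7.63 ± 0.15 in A2780 (SD, n = 3) and 8.48 ± 0.03 in CP70. MAP4 rose in CP70 with a log2FC of 0.86 (SE 0.13, FDR = 2.07e-05, limma). In the PEA pair the libraries overlapped, and the log2FC was -0.08 (FDR = 0.621, limma). In the PEO pair it was -0.33 (FDR = 0.0489, limma). The call in the PEO pair was lost without the variance trend (FDR = 0.096, limma) and without any 1 of A2780 replicates 1 and 3, CP70 replicates 1, 2 and 3, PEA1 replicate 3, PEO1 replicates 2 and 3 and PEO4 replicates 1, 2 and 3, with FDRs of 0.0519 to 0.211.

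STMN1 (ENSG00000117632, chr1:26210672-26233482, minus strand) encodes stathmin, whose activity is switched off by phosphorylation as cells enter mitosis. It was high in all lines, with a log2 CPM of 7.92, 7.95 and 7.96 in A2780 and 8.21, 8.23 and 8.28 in CP70, and the log2FC was 0.30 (SE 0.08, FDR = 0.00814, limma). In the PEA pair it was 0.12 (FDR = 0.236, limma). In the PEO pair the libraries overlapped, and the log2FC was -0.24 (FDR = 0.0273, limma). This call was lost without PEO1 replicate 1 (FDR = 0.149), PEO1 replicate 2 (0.0972), PEO4 replicate 2 (0.0959) or PEO4 replicate 3 (0.0812), and without the variance trend (0.0556). The 10 proliferation markers summed to 2407 to 2592 CPM in PEO1 and to 1953 to 2233 in PEO4, where 6 of them fell. They summed to 3151 to 3368 CPM in A2780 and 3275 to 3365 in CP70. Their part in the STMN1 result was not tested.

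The beta-tubulin genes of the group are alike in sequence to different degrees, which limits how well their reads can be separated. The last 150 coding bases before the stop codon are printed here because they include the part that encodes the tail, in which isotypes differ. They were read from the GRCh37 genome at chr6:3154100-3154249 (minus strand) for TUBB2A, chr6:3224988-3225137 (minus strand) for TUBB2B and chr18:12325977-12326126 (plus strand) for TUBB6. Capitals mark the base in which TUBB2A and TUBB2B differ and, in TUBB6, the 29 bases that are not identical to TUBB2A in an alignment of the whole coding sequences.
TUBB2A: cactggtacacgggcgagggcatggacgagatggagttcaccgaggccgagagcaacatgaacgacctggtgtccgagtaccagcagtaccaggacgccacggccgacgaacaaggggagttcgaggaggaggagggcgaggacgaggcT
TUBB2B: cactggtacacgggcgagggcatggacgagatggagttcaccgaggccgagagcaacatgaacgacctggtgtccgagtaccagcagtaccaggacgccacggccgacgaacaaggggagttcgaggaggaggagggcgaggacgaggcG
TUBB6: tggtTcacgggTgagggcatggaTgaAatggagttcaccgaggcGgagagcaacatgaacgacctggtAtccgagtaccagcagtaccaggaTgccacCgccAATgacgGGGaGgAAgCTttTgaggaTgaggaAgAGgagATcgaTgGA

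TUBB2A and TUBB2B were identical in this stretch except for the last base, while the end of TUBB6 diverged. Over the whole coding sequence of 1335 bases, TUBB2A and TUBB2B differed at 24 positions (98.2% identical) and shared an uninterrupted run of 725 bases. TUBB2A and TUBB6 were 86.3% identical. Of all stretches of 75 bases in TUBB2A transcripts, 28.4% also occurred in TUBB2B, 2.27% in TUBB4B and none in TUBB6. Of those in TUBB4B transcripts, 3.39% occurred in TUBB2A and 3.39% in TUBB2B. TUBB4B was far more abundant, at a mean of 168.5 CPM per kb of exon in A2780 and 204.9 in PEO1. TUBB2A was at 5.53 and 10.1 there. Reads from shared stretches could have been assigned to any of these genes or discarded. This depends on how multiply mapped reads were treated, which is not given in the sources used here. The part of TUBB4B reads in the TUBB2A and TUBB2B values was not tested. TUBB2A and TUBB2B both lie on the minus strand of chromosome 6, 65779 bases apart.

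TUBB2A (ENSG00000137267, chr6:3153731-3157778) had a log2 CPM of 4.06, 4.06 and 3.95 in A2780 and of 5.67, 5.63 and 5.71 in CP70. All CP70 libraries lay above those of A2780, with a log2FC of 1.65 (SE 0.20, FDR = 1.51e-06, limma). In PEO1 it was 4.64, 4.85 and 5.13 and in PEO4 4.04, 3.65 and 4.11, and the log2FC was -0.94 (FDR = 0.000913, limma). In the PEA pair the libraries overlapped, and the log2FC was -0.04 (FDR = 0.892, limma).

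TUBB2B (ENSG00000137285, chr6:3223558-3231964) was the lowest of the tubulins in the group, with 12 to 106 reads per library. It rose in CP70 with a log2FC of 1.39 (SE 0.31, FDR = 0.00105, limma). In PEO4 the log2FC was -0.85 (FDR = 0.0315, limma), a call lost without PEO1 replicate 1 (FDR = 0.0675), PEO1 replicate 3 (0.101) or PEO4 replicate 3 (0.128). TUBB2A and TUBB2B thus had the same direction in these pairs, though the measurements share sequence and are not independent. In the PEA pair the log2FC of TUBB2B was 0.49 (FDR = 0.176, limma), which among the alternatives passed the test only without PEA1 replicate 1 (log2FC 0.77, FDR = 0.047).

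TUBB6 (ENSG00000176014, chr18:12307668-12344319, plus strand) encodes the class V beta-tubulin isotype. Its log2 CPM was 8.0, 7.80 and 7.68 in PEA1 and 6.18, 6.63 and 6.57 in PEA2, and the log2FC was -1.37 (SE 0.12, FDR = 5.89e-09, limma). In PEO1 it was 7.28, 7.35 and 7.35 and in PEO4 6.36, 5.99 and 6.33, and the log2FC was -1.10 (FDR = 3.34e-07, limma). In both HGSOC pairs all libraries of the resistant line lay below those of the sensitive line. In CP70 TUBB6 rose with a log2FC of 0.40 (FDR = 0.0108, limma).

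TUBA1A (ENSG00000167552, chr12:49578469-49582863, minus strand) encodes the alpha-tubulin that is most abundant in developing neurons. Its log2 CPM was 7.91, 8.14 and 8.52 in PEO1 and 6.55, 6.17 and 6.46 in PEO4, with a log2FC of -1.79 (SE 0.13, FDR = 1.22e-09, limma). In PEA1 it was 7.36, 7.30 and 7.47 and in PEA2 6.19, 5.98 and 6.10, with a log2FC of -1.29 (FDR = 3.84e-08, limma). Like TUBB6, TUBA1A was thus lower in the resistant line of both HGSOC pairs. It rose in CP70 from 6.51 ± 0.10 to 7.10 ± 0.07 (SD, n = 3), a log2FC of 0.59 (FDR = 0.000863, limma). Of the stretches of 75 bases in TUBA1A transcripts, 9.96% also occurred in TUBA1B and 6.17% in TUBA1C. TUBA1B and TUBA1C also fell in both HGSOC pairs. Their log2FC in PEA2 was -0.42 (FDR = 0.0012, limma) and -0.68 (FDR = 1.34e-05, limma). In PEO4 it was -0.48 (FDR = 0.000631, limma) and -0.27 (FDR = 0.0439, limma). TUBA1C rose in CP70 (0.70, FDR = 1.69e-05, limma), where TUBA1B was not called (FDR = 0.139, limma).

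All 4 tubulin genes of the group overlap a protein-coding gene on the opposite strand (TUBB2A overlaps BPHL, TUBB2B PSMG4, TUBB6 AFG3L2 and TUBA1A TUBA1C). The libraries were strand-specific, but whether counting used the strand is not given in the sources used here. MAP1A, MAP2, MAP4 and STMN1 overlap no other protein-coding gene in the annotation.

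**Figure D2:**
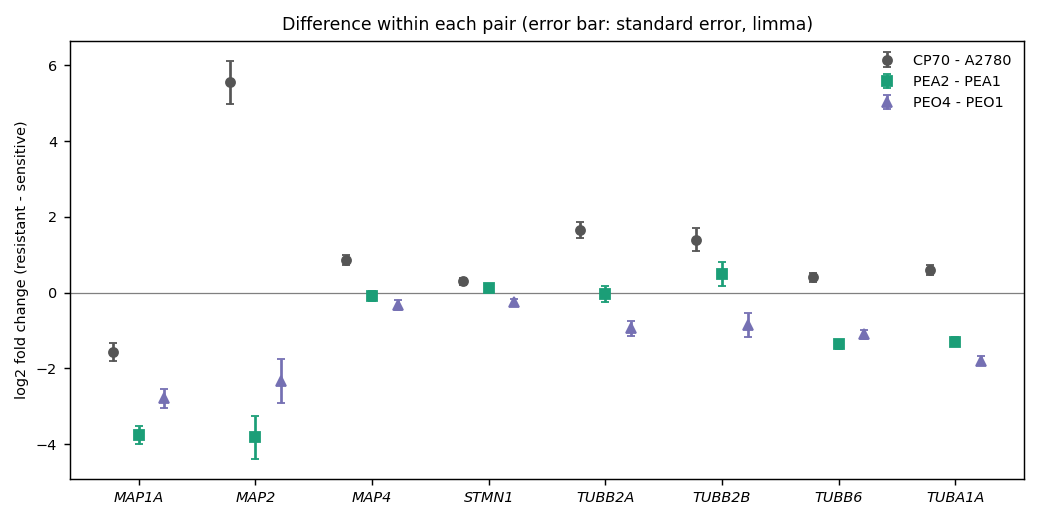
Log2 fold changes of resistant against sensitive line (vertical axis) for the 8 genes (horizontal axis), with 1 symbol for each pair and the limma standard error as error bar. MAP1A lies below 0 in all 3 pairs, the other 7 genes lie above 0 for CP70 and below 0 for PEO4, and the values drawn for MAP1A in the PEA pair and for MAP2 in the A2780 and PEA pairs rest on a line with at most 3 reads per library.

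Whether the differences depended on the pair was tested directly, in 21 comparisons of 7 genes, of which 16 passed the FDR. The PEA pair differed from the A2780 pair for 5 of 7 genes, against 57.5% of all genes, and the PEO pair differed from the A2780 pair for 7 of 7, against 47.5%. The log2FC was the lower in the HGSOC pair in each of these. The PEO pair differed from the PEA pair for 4 of 7 genes (STMN1, TUBB2A, TUBB2B and TUBA1A), against 58.7% of all genes. For TUBB6 the difference between the HGSOC pairs was 0.27 on the log2 scale (FDR = 0.181, limma).

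The sensitive lines also differed from each other. PEA1 differed from A2780 for all 7 tested genes, against 71.9% of all genes, with STMN1 lower and the other 6 higher in PEA1. PEO1 differed from A2780 for 6 of 7, against 72.0%, with STMN1 lower, TUBB6 not called and the other 5 higher in PEO1. PEO1 differed from PEA1 for 4 of 7, against 68.1%, with MAP2, STMN1 and TUBA1A higher and TUBB6 lower in PEO1. The widest gap was that of MAP2, which was at least 176-fold higher in PEO1 than in A2780, against 3 reads in each library. TUBA1A was higher in PEO1 than in A2780 by 1.68 on the log2 scale (FDR = 3.35e-10, limma), close to the size of its fall from PEO1 to PEO4.

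Some of these calls depended on single libraries or on the processing. For TUBB2B the call of PEA1 against A2780 was lost with voom weights (FDR = 0.0683) and without A2780 replicate 3 (FDR = 0.0616), PEA1 replicate 1 (0.15) or PEA1 replicate 2 (0.0599). For MAP4 that of PEO1 against A2780 was lost without A2780 replicate 1 (FDR = 0.0882), A2780 replicate 3 (0.096), PEO1 replicate 2 (0.0773) or PEO1 replicate 3 (0.086). It was also lost under quantile normalization (FDR = 0.0716, limma) and without the variance trend (0.0608). Without PEA1 replicate 2 the difference of MAP4 between PEO1 and PEA1 passed the test (FDR = 0.043).

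To place the group among all measured tubulins, the reads of each gene were divided by its exon length and expressed as a share of the beta-tubulin or the alpha-tubulin genes. TUBB, the class I isotype of most dividing cells, and TUBB4B together held most of the beta-tubulin signal in every line. In the beta-tubulin genes, TUBB6 had a share of 8.04% ± 0.73 in PEA1 and 4.17% ± 0.75 in PEA2 (SD, n = 3), and of 9.63% ± 0.64 in PEO1 and 5.55% ± 0.32 in PEO4, with no overlap of libraries in either pair. In the A2780 pair the shares of TUBB6 overlapped, at 8.36% ± 0.95 and 8.09% ± 0.30. TUBB2A and TUBB2B summed to 1.63% ± 0.05 in A2780, 3.69% ± 0.11 in CP70, 3.18% ± 0.21 in PEO1 and 2.07% ± 0.03 in PEO4, without overlap within these pairs. In the PEA pair their summed shares overlapped, at 1.91% ± 0.39 in PEA1 and 2.76% ± 0.87 in PEA2. TUBB rose in PEO4 (log2FC 0.48, FDR = 0.00538, limma) while TUBB4B fell (log2FC -1.24, FDR = 8.14e-08, limma), and their shares passed from 38.9% ± 2.1 to 67.0% ± 1.7 and from 48.3% ± 1.7 to 25.4% ± 1.3. Without division by length, TUBB held 51.9% in PEO1 and 77.2% in PEO4, and TUBB4B 32.3% and 14.7%. Which of them led in PEO1 thus depended on that division.

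Among the alpha-tubulin genes, TUBA1A had a share of 13.5% ± 3.0 in PEO1 and 5.96% ± 0.16 in PEO4, of 9.69% ± 0.27 in PEA1 and 4.99% ± 0.26 in PEA2, and of 10.3% ± 1.4 in A2780 and 11.1% ± 0.7 in CP70 (SD, n = 3). TUBA4A, another alpha-tubulin isotype, had the widest range of shares. Its share was 0.0884% ± 0.0518 in A2780, where 1 to 4 reads per library were found, but 20.3% ± 1.7 in PEA2. It rose in PEA2 (log2FC 3.23, FDR = 1.07e-08, limma) and in CP70 (2.02, FDR = 1.11e-05, limma), and it fell in PEO4 (-1.77, FDR = 5.98e-05, limma). TUBA1A and TUBA4A thus moved in opposite directions in the PEA pair, and in the same direction in the PEO pair.

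The summed level of the tubulins differed as well. The 4 alpha-tubulin genes summed to 850 to 971 CPM in A2780 and 1282 to 1335 in CP70, to 1788 to 1907 in PEA1 and 1390 to 1447 in PEA2, and to 2181 to 2411 in PEO1 and 1294 to 1596 in PEO4. The libraries overlapped in no pair. The 5 beta-tubulin genes summed to 1280 to 1525 CPM in A2780 and 1793 to 1898 in CP70, and to 2278 to 2504 in PEA1 and 1626 to 1870 in PEA2, while PEO1 (1178 to 1433) and PEO4 (1106 to 1289) overlapped. An exact test of 3 libraries against 3 cannot go below p = 0.1, and none was run on these sums.

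**Figure D3:**
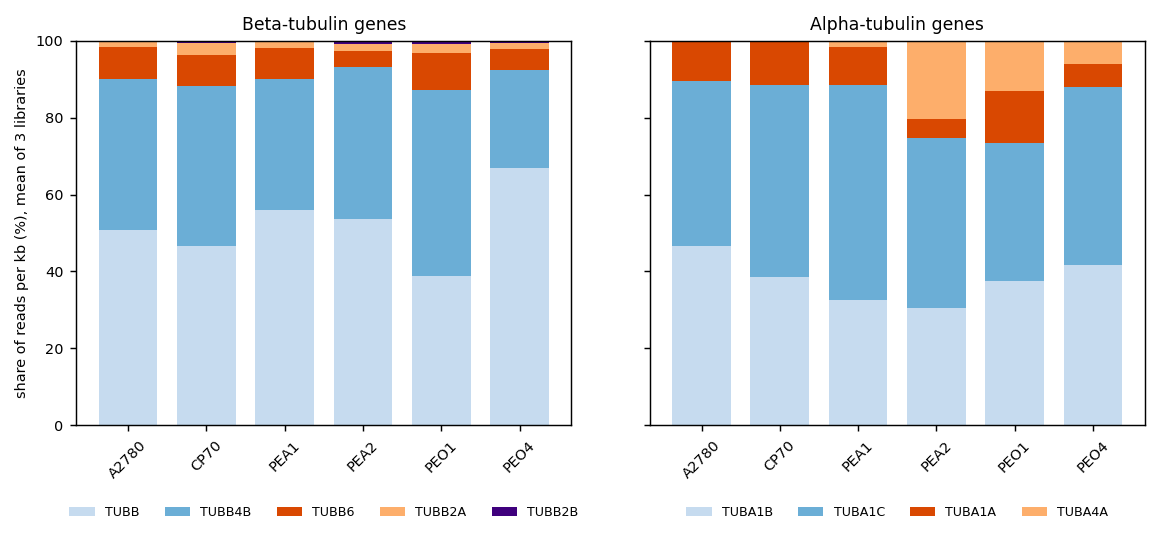
Stacked bars give each gene's share (%, vertical axis, mean of 3 libraries) of the length-scaled reads of the beta-tubulin genes (left) and the alpha-tubulin genes (right) in the 6 cell lines (horizontal axis). In PEO4 TUBB takes 67.0% and TUBB6 5.55% of the beta-tubulin bar, and TUBA4A, nearly invisible in A2780, takes 20.3% of the alpha-tubulin bar of PEA2.

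The other genes of microtubule biology were counted in 10 lists by role, with 88 genes that are not in the group. In the A2780 pair 32 of them rose, 12 fell and 44 were not called, where 22.2% of all genes rose and 17.7% fell. In PEA2 26 rose, 30 fell and 32 were not called, counts near the 32.5% and 29.4% of all genes. In PEO4 10 rose, 28 fell and 50 were not called, beside 19.6% and 21.9% of all genes. The same percentages stand behind the counts of the single lists. Their median log2FC was 0.10, -0.07 and -0.12, beside -0.02, 0.01 and -0.02 for all genes. Only TBCE, a cofactor that folds alpha-tubulin, fell in all 3 pairs (log2FC -0.56, -0.81 and -1.14), and 30 were called in opposite directions in different pairs. Of all genes, 1.21% fell and 1.59% rose in all 3 pairs, and 27.5% were called in opposite directions.

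Among 14 lattice-binding MAPs, 5 rose and 2 fell in CP70, 4 rose and 8 fell in PEA2, and 1 rose and 6 fell in PEO4. DCLK1, a doublecortin-like kinase, was at least 10.6-fold higher in CP70 than in A2780 (FDR = 3.20e-07, limma) and at least 7.31-fold lower in PEO4 than in PEO1 (FDR = 1.38e-05, limma), the same directions as MAP2. EML2 had the reverse pattern, with a log2FC of -1.67 in CP70 (FDR = 0.000307, limma) and 1.41 in PEO4 (FDR = 0.00148, limma). In PEA2 EML1 fell to 2 to 4 reads per library from 61 to 74 (log2FC -5.03, FDR = 4.17e-12, limma), and MAP7, which recruits kinesin to microtubules, rose (4.10, FDR = 1.42e-09, limma). MAP7 was also at least 2.81-fold higher in CP70 than in A2780 (FDR = 1.72e-09, limma), and it was not called in PEO4 (FDR = 0.945, limma). In the PEA pair the epithelial markers summed to 430 to 588 CPM in PEA1 and 4152 to 4412 in PEA2. Of these, 7 of 9 rose in PEA2. Of 8 measured mesenchymal markers, 4 fell, 1 rose and 3 were not called in PEA2. Of all genes, 29.4% fell and 32.5% rose. VIM, the mesenchymal marker with the highest mean level, was at 2299 to 2653 CPM in PEA1 and 107 to 117 in PEA2. The part of these markers in the MAP results was not tested.

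Among the 11 destabilisers and severing enzymes, 6 rose and 2 fell in CP70, 3 rose and 3 fell in PEA2, and 2 fell in PEO4. STMN3, a neuronal relative of stathmin, rose from 2 to 4 reads per library in A2780 to 84 to 156 in CP70 (log2FC 4.59, FDR = 7.24e-08, limma). KATNAL2, a katanin-like gene, held 7 to 17 reads per library in PEA1 and 0 in PEA2, at least 5.55-fold lower (FDR = 1.07e-08, limma). KIF2A, a kinesin that takes microtubules apart, rose in PEA2 (1.31, FDR = 1.04e-08, limma). In PEO4 FIGNL1, an AAA-type ATPase related to the severing enzyme fidgetin, fell (-0.47, FDR = 0.00403, limma).

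Of 10 plus-end proteins, 3 rose and 2 fell in CP70, 6 rose and 1 fell in PEA2, and 3 fell in PEO4. CLIP1, which tracks growing ends, rose in CP70 (log2FC 1.37, FDR = 3.68e-09, limma), and MAPRE2, an end-binding protein, fell there (-0.51, FDR = 0.0233, limma) and in PEA2 (-0.97, FDR = 7.42e-05, limma). SLAIN1 was at least 5.55-fold higher in PEA2 than in PEA1 (FDR = 2.29e-06, limma). CKAP5, a polymerase of the plus end, fell in PEO4 (-1.01, FDR = 2.80e-08, limma). The 12 nucleation genes include genes that form and anchor the gamma-tubulin ring. Of the 12, 2 fell in CP70 (1 of them MZT1, log2FC -1.15, FDR = 2.15e-05, limma), 5 rose and 1 fell in PEA2 and 4 fell in PEO4. TUBGCP6 rose in PEA2 (2.66, FDR = 2.09e-09, limma) and fell in PEO4 (-1.16, FDR = 0.000211, limma), and TUBGCP5 fell in PEA2 (-1.01, FDR = 1.09e-06, limma).

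The list of 8 tubulin folding cofactors includes genes that assemble the alpha and beta pair. Of the 8, 4 rose and 1 fell in CP70, 2 rose and 3 fell in PEA2, and 2 rose and 2 fell in PEO4. ARL2 rose in CP70 (log2FC 0.63, FDR = 0.0125, limma), and in PEA2 TBCA rose (1.93, FDR = 1.34e-09, limma) and TBCB fell (-1.05, FDR = 1.11e-06, limma). In PEO4 TBCC rose (0.95, FDR = 0.000315, limma). Of 13 tubulin-modifying enzymes, 4 rose and 3 fell in CP70, 2 rose and 5 fell in PEA2, and 3 rose and 5 fell in PEO4. TTLL7, which adds glutamate chains to beta-tubulin tails, rose in CP70 (3.01, FDR = 2.83e-08, limma) and fell in PEA2 (-2.97, FDR = 1.94e-08, limma), the directions that MAP2 had in these pairs. AGBL5, which removes glutamates, fell in CP70 (-0.67, FDR = 0.00624, limma), and TTLL3 was at least 1.26-fold higher in PEA2 than in PEA1 (FDR = 0.00915, limma). ATAT1, the alpha-tubulin acetyltransferase, rose in PEO4 (1.30, FDR = 0.0116, limma), where TTLL12 fell (-1.93, FDR = 1.85e-10, limma).

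Of 12 spindle motors and factors, 5 rose in CP70, 2 rose and 5 fell in PEA2, and 3 rose and 2 fell in PEO4. KIF20A, a kinesin of cytokinesis, rose in CP70 (log2FC 0.90, FDR = 1.66e-06, limma) and in PEO4 (1.29, FDR = 1.96e-08, limma), although the summed proliferation markers were lower in PEO4. HMMR, a spindle assembly factor, fell in PEO4 (-0.74, FDR = 4.75e-05, limma). In PEA2 KIF18B fell (-1.36, FDR = 1.23e-08, limma) and KIF22 rose (0.67, FDR = 1.12e-05, limma). Of 3 MARK kinases, which phosphorylate MAPs and loosen their hold on microtubules, 2 rose in CP70, 1 rose and 1 fell in PEA2 and in PEO4 the 3 were not called (limma; 1 at an unadjusted p below 0.05 and 1 with voom weights). MARK4 rose in CP70 (0.57, FDR = 0.0144, limma) and fell in PEA2 (-0.79, FDR = 0.000779, limma), where MARK2 rose (0.43, FDR = 0.00105, limma).

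**Figure D4:**
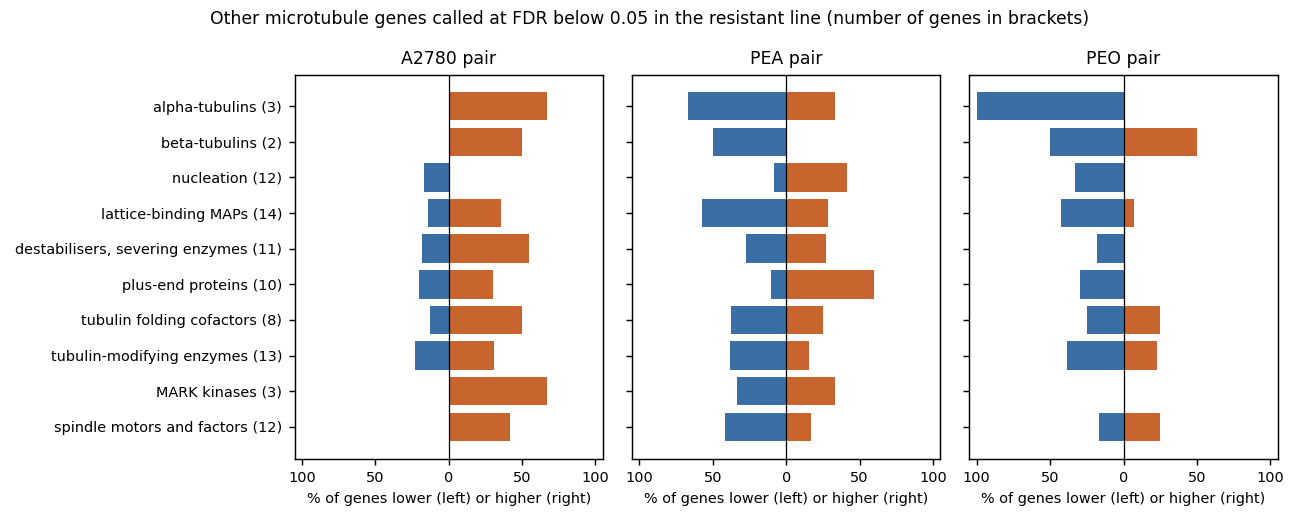
For each list of microtubule genes outside the group (vertical axis, with its number of genes), bars give the percentage called lower (blue, to the left) and higher (orange, to the right) in the resistant line of each pair at an FDR below 0.05. Lattice-binding MAPs reach further left for PEA2 and PEO4, where 8 and 6 of 14 genes fell, than for CP70, where 2 fell. The same holds for alpha-tubulins, beta-tubulins, tubulin folding cofactors, tubulin-modifying enzymes and spindle motors and factors, but not for the remaining lists.

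The genes whose pattern was most like that of MAP1A over the 18 libraries were NEBL (Pearson's r = 0.975), SKIDA1 (0.968) and MDM4 (0.964), chosen among genes with a mean log2 value above 0. NEBL encodes nebulette, an actin-binding protein, and its mean log2 CPM was 7.71 in A2780, 7.11 in CP70, 3.56 in PEA1, 1.05 in PEA2, 4.23 in PEO1 and 2.47 in PEO4. SKIDA1 passed in the same order from 6.20 to 6.07, from 2.19 to -0.81 and from 2.83 to 1.07. MDM4, a negative regulator of p53, was at 7.61 in A2780 and 7.42 in CP70, at 6.40 in PEA1 and 5.40 in PEA2, and at 6.35 in PEO1 and 6.05 in PEO4, a narrower range. The 18 libraries come from 6 lines, and the high level in A2780 and CP70 carries much of each correlation. They are a description without a test.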

How the data were processed

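RNA-seq of 6 cell lines, with 3 libraries each, was analysed. Per the labels and the methods of the study, libraries were strand-specific. Read assignment used featureCounts with UCSC known genes (hg19), normalization used limma, and the submitters' processing notes also name Bowtie2. The authors deposited log2 CPM values of 12853 genes. Each rests on a count plus 0.5 reads, over a scaled library size. Whole reads were recovered from these values (within 0.01 reads) and used for depth, for genes at the floor of 3 reads and for alternatives. Depth is given with the samples. These floors cover counting error only.

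Tests on the deposited values used limma 3.58.1 under R 4.3.3 (moderated statistics with a variance trend), in 1 fit of 18 libraries with a mean per line. Contrasts were the 3 pairs, the sensitive lines against each other and the pairs against each other, with Benjamini-Hochberg adjustment over all genes and an FDR below 0.05. Where no library of a line exceeded 3 reads, the fold was taken against 3 reads in each library, as a lower bound. The fits were tested on simulated data.

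Coordinates, exon lengths and sequences came from GRCh37 with the GENCODE v44 annotation lifted to it, the same assembly as hg19. TBCE and TUBGCP5 had no span there. Coding sequences were aligned with Biopython 1.88.

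The genes of the group, the lists and the rules were chosen with earlier results of these data known. Named genes outside the group are all measured tubulins, for each other list and pair the called genes with the highest and lowest log2FC among those with over 3 reads in all libraries of at least 1 line, and the 3 genes most correlated with MAP1A. A gene selected by this rule is not reported here, though counts include it. Alternatives were separate fits per pair, only genes with a mean log2 value above 0, quantile normalization, a replicate block, no variance trend, voom weights, 2 reads added, log2FC beyond 1 or 2, shares of reads without length, and each library left out in turn. TUBB3, MAPT and the other assays were not analysed here.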

Additional observations from a re-analysis of the deposited data

Results flagged for a closer look

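In 16 of 21 tests the difference between resistant and sensitive line depended on the pair, as a contrast of the log2 fold changes (log2FC) tested with limma and adjusted over 12853 genes. Of all genes, 57.5% were called for the PEA against the A2780 pair, 47.5% for PEO against A2780 and 58.7% for PEO against PEA. Each value below is the log2FC of the first pair minus that of the second.

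Against the A2780 pair, the PEA pair was lower by -9.37 for MAP2 (SE 0.81, FDR = 7.04e-09), though A2780 and PEA2 held at most 3 reads per library and this value depends on the reads added. The same contrast was -0.94 for MAP4 (FDR = 0.000236), -1.69 for TUBB2A (FDR = 5.38e-05), -1.77 for TUBB6 (FDR = 2.98e-08) and -1.88 for TUBA1A (FDR = 3.40e-08). It was not called for TUBB2B, but passed the test without PEA1 replicate 3 (-1.22, FDR = 0.0171) or PEA2 replicate 1 (-1.25, FDR = 0.0132).

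Against the A2780 pair, the PEO pair gave -7.89 for MAP2 (FDR = 1.14e-07, with A2780 near 0), -1.19 for MAP4 (FDR = 2.50e-05), -0.54 for STMN1 (FDR = 0.00097), -2.59 for TUBB2A (FDR = 3.82e-07), -2.25 for TUBB2B (FDR = 0.000259), -1.50 for TUBB6 (FDR = 4.05e-07) and -2.39 for TUBA1A (FDR = 1.60e-09).

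Between the HGSOC pairs, PEO minus PEA was -0.36 for STMN1 (FDR = 0.0147), -0.91 for TUBB2A (FDR = 0.0113), -1.34 for TUBB2B (FDR = 0.0124) and -0.50 for TUBA1A (FDR = 0.0226). The TUBA1A call was lost without PEA2 replicate 1 (FDR = 0.0504), PEO1 replicate 3 (0.0799) or PEO4 replicate 2 (0.0757). Under quantile normalization the calls of TUBA1A (-0.35, FDR = 0.098) and STMN1 (-0.19, FDR = 0.17) were both lost. For MAP2 the contrast was 1.48 and passed the test without PEA2 replicate 1 (1.93, FDR = 0.0487) or with voom weights (1.58, FDR = 0.0311). Under quantile normalization TUBB6 passed it as well (0.46, FDR = 0.0235), as did STMN1 for the PEA pair against the A2780 pair (-0.44, FDR = 0.00412).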

How the results depend on the processing

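Of 1752 values of single genes under the alternatives, 1694 kept their direction and side of the threshold or stayed within the replicate spread, 37 lost a call, 8 gained one and 7 moved beyond the spread. The other 6 changed sign, all in the PEA pair and not called: MAP4 without PEA1 replicate 1 (0.0082) or PEA2 replicate 2 (0.027), STMN1 under quantile normalization (-0.039), and TUBB2A without PEA1 replicate 1 (0.021), PEA1 replicate 2 (0.051) or PEA2 replicate 2 (0.21). The lowest values with 1 library left out were -0.24 for MAP4 and -0.23 for TUBB2A. Leaving out a library of a line outside the comparison, or dropping the variance trend, cannot change a log2FC. In such fits only the FDR could move, and the values of MAP1A, given without a test, could not. Quantile normalization, which shifted the median of all genes in the PEA pair to -0.10, gave MAP1A -4.43 in the PEA and -3.99 in the PEO pair, and 2 added reads gave -3.09 in the PEA pair. Without division by length, the share of TUBB6 was 9.47% in PEA1 and 5.11% in PEA2. Under quantile normalization TUBB2B was not called in PEA1 (FDR = 0.608, limma) or PEO1 (0.154) against A2780.

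The 15 counts moved by over 1.5 times with a threshold on size and, for the group in the PEO pair, without PEO4 replicate 3 (4 in place of 7). With log2FC beyond 1 and beyond 2, genes of the group called were 3 and 1 for CP70 and 3 and 1 for PEO4. Beyond 2, 1 was called for PEA2. Other microtubule genes higher and lower were 9 and 4 (beyond 1) and 5 and 1 (beyond 2) in the A2780 pair, 10 and 12, then 5 and 5, in the PEA pair, and 3 and 10, then 0 and 2, in the PEO pair. Genes differing were 1 and 1 for PEA1 against A2780, 3 and 1 for PEO1 against A2780, and 1 and 1 for PEO1 against PEA1. Between pairs they were 1 (beyond 2) for PEA against A2780, 4 (beyond 2) for PEO against A2780, and 1 and 0 for PEO against PEA.

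With 1 library left out, genes of the group called numbered 7 in every fit of the A2780 pair, 3 to 4 in the PEA and 4 to 7 in the PEO pair, 6 to 7, 5 to 6 and 4 to 5 between sensitive lines (PEA1 and PEO1 against A2780, PEO1 against PEA1), and 5 to 6, 7 and 3 to 4 between pairs. Other microtubule genes higher and lower ranged from 27 to 33 and 11 to 14, 21 to 26 and 27 to 30, and 9 to 11 and 26 to 29 in the A2780, PEA and PEO pairs.

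Same-numbered libraries of a pair did not deviate together across genes (correlations -0.04 to 0.08). These values cannot exclude a shared effect that is weak or limited to few genes. With the replicate block, 7, 3 and 7 genes of the group were called in the A2780, PEA and PEO pairs, as without it. Depth limits MAP2 in A2780 and PEA2 and MAP1A in PEA2.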
